A study of Mus musculus with 6 samples.

Results

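The genes described here are the Wnt ligands, their Frizzled receptors and a fixed set of Wnt pathway targets and regulators, read in cultured mouse keratinocytes. They were chosen by symbol alone: every gene named Wnt or Fzd followed directly by a digit, and 12 further genes (Axin2, Lef1, Tcf7l1, Tcf7l2, Nkd1, Nkd2, Sp5, Dkk1, Dkk2, Dkk3, Lgr5 and Lgr6). The rule found 42 of the 19938 genes measured: 19 ligands, 10 receptors, the opposite-strand transcript Fzd10os, 3 Tcf/Lef factors, 6 targets and feedback regulators, and 3 Dkk proteins. All 42 entered the tests, since no filter on low values was used. RNA came from keratinocytes of C57BL/6 embryos (E18.5) that were cultured for 2 to 5 days without added calcium, and was hybridised to 6 Affymetrix arrays, 2 per group, with RNA of 2 mice on each array. Control arrays came from Ovol2flox/+; Ovol1+/- mice or Ovol2flox/+;K14-Cre mice, so they may lack 1 copy of either factor, and which of these went on which array is not given. The arrays labelled Ovol1 KO came from Ovol1-/- mice, and the Ovol1/2 DKO arrays from Ovol2flox/-;K14-Cre; Ovol1-/- mice. Ovol1 and Ovol2 are zinc finger transcription factors of epithelia. In the DKO the K14 promoter drives Cre, so the floxed Ovol2 copy is lost in K14-expressing keratinocytes, while its other Ovol2 copy and both Ovol1 copies are mutant in every cell.

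Wnt ligands are secreted, lipid-modified proteins that bind Frizzled receptors and a co-receptor at the cell surface. In the beta-catenin branch of the pathway this stabilises beta-catenin, which joins Tcf/Lef factors on DNA and switches on targets such as Axin2, a scaffold protein that in turn dampens the signal. Other ligands, among them Wnt5a and Wnt11, are best known for branches that steer cell polarity and movement without beta-catenin. In skin, Wnt signals are known for starting hair follicles and for keeping basal epidermal cells dividing.

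The labels were checked first. Ovol1 read 9.64 and 9.95 in control on the log2(intensity + 16) scale used throughout, and 5.96 and 6.22 in Ovol1/2 DKO. Arrays labelled Ovol1 KO read 10.75 and 9.80, so this probe set went against their label, and every direction drawn from them is that of the arrays so labelled. Ovol2 read 8.37 and 6.97 in control, 7.88 and 8.38 in labelled Ovol1 KO and 7.63 and 7.50 in DKO, so its loss was not seen either. Whether the Ovol2 probe set lies in the deleted part is not known here, and if not it checks nothing. Every sample is labelled female. Xist, however, was at 4.43 and 4.54 in replicate 1 of control and of labelled Ovol1 KO against at least 10.99 elsewhere. The Y-linked Eif2s3y was at 13.80 in labelled Ovol1 KO replicate 1 and at most 5.14 elsewhere. It was at 4.85 in control replicate 1, which thus showed neither signal. The defining keratinocyte markers Krt5 and Krt14 ran from 13.21 to 13.55 over the 6 arrays. Of the 10 keratinocyte markers none passed against control, and 2 rose in DKO over labelled Ovol1 KO: Trp63 (1.1, limma adjusted p = 0.0464) and Dst (1.34, limma adjusted p = 0.0267). Krt15 differed by 1.74 and 1.52 in the 2 comparisons without passing, and Perp by -0.25 and -0.30. Their part in the Wnt signals was not tested. A level is called near background at or under 6.2, which is the highest of the 6 per-array medians of probe sets without a gene name. Precision is limited by having 2 arrays in each group, and the median standard error (SE) of a log2 difference between DKO and control was 0.245.

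Of the 42 genes 5 were near background in the mean of every group, namely Wnt2, Wnt8a, Wnt8b, Lgr5 and Sp5, and these are known here only as dim signals. Between Ovol1/2 DKO and control, 1 of the 42 genes had a limma adjusted p below the threshold of 0.05, and it was higher in DKO. That is 2.38% against 2.02% of all genes in either direction, so the share was near the background. An unadjusted p under 0.05 was found for 14 of the 42 (33.3%, against 10.4% of all genes). Of these, 11 were higher in DKO (26.2% of the 42, against 5.07%) and 3 lower (7.14%, against 5.32%). The DKO and control arrays did not overlap for 26 of the 42 (61.9%, against 39.2% of all genes). Both DKO arrays were the higher ones for 20 of them (47.6%, against 21.1% of all genes) and the lower ones for 6 (14.3%, against 18.1%). The median log2 difference of the 42 was 0.22, beside 0.03 over all genes. No gene of the 42 passed without control replicate 2, DKO replicate 1 or DKO replicate 2, and 2 passed without control replicate 1. Over all genes, control replicate 1 correlated with DKO replicates 1 and 2 at 0.963 and 0.953, and with control replicate 2 at 0.969. Control replicate 2 correlated with the DKO arrays at 0.92 and 0.933, and the labelled Ovol1 KO arrays did so at 0.918 to 0.935. Why control replicate 1 lay nearer to DKO was not tested.

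Against the arrays labelled Ovol1 KO, 2 of the 42 passed (4.76%, against 3.15% of all genes), both higher in DKO. Of the 13 with an unadjusted p under 0.05 (31.0%, against 14.1%), 9 were higher in DKO (21.4% of the 42, against 7.64%). The other 4 were lower (9.52%, against 6.41%). Arrays did not overlap for 25 of the 42 (59.5%, against 43.1%), with 18 higher in DKO (42.9%, against 24.6%) and 7 lower, and the median was 0.19 beside 0.02. None passed without labelled Ovol1 KO replicate 1, DKO replicate 1 or DKO replicate 2, 1 passed without labelled Ovol1 KO replicate 2, and 4 passed without control replicate 1 or control replicate 2. Leaving out either array of the group not compared gives the same fit as using only the groups compared, so these settings are a single check. Both comparisons use the same DKO arrays, so they are given side by side and do not support one another.

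Leaving out both arrays without Xist signal left 1 control array, 1 array labelled Ovol1 KO and both DKO arrays. In that fit 10 genes passed against control: Fzd2, Fzd4, Fzd10, Wnt3, Wnt3a, Wnt6, Axin2 and Dkk3 were higher in DKO, and Wnt7b and Wnt11 lower. Against the remaining array labelled Ovol1 KO 10 passed too, with Fzd2, Fzd4, Fzd10, Wnt3, Wnt3a, Wnt5a and Axin2 higher and Fzd5, Wnt7b and Wnt11 lower. The spread within a group then came from the DKO arrays alone, and the lone arrays are assumed to vary like them. DKO had the smallest median gap between its arrays, 0.19 for the 42 genes. Of all genes, 1395 and 1508 passed in these fits, against 403 and 628 with every array.

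**Figure D1:**
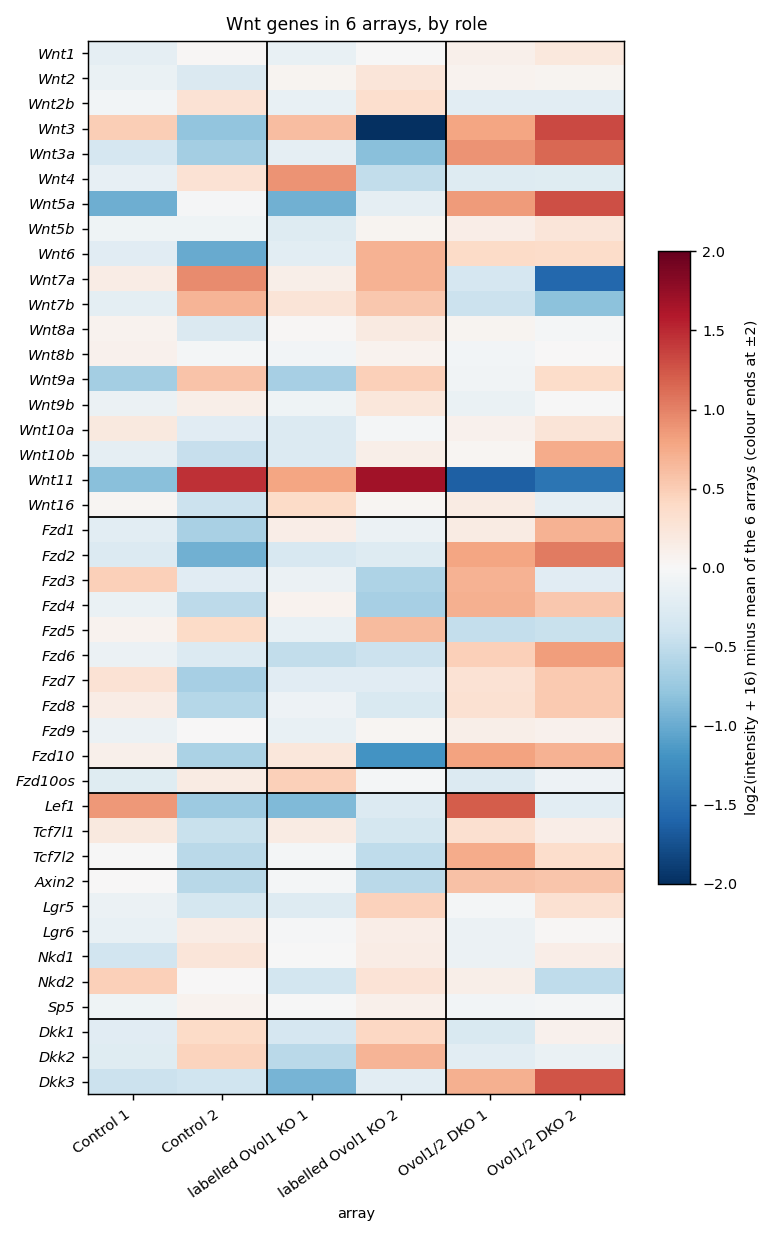
Level of the 42 genes in each array, as log2(intensity + 16) minus the gene's mean over the 6 arrays, with genes in rows by role and arrays in columns by group. Most Frizzled genes are red in both Ovol1/2 DKO arrays, while Wnt7a, Wnt7b, Wnt11 and Fzd5 are blue there, and Wnt3 in labelled Ovol1 KO replicate 2 stands apart.

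The Frizzled receptors bind Wnts through a cysteine-rich domain outside the cell, and the single gene that passed against control was one of them. Fzd2, a receptor for Wnt5a among others, read 8.88 and 8.19 in control, 8.83 and 8.89 in labelled Ovol1 KO, and 9.94 and 10.20 in DKO. Both DKO arrays stood above the other 4. Against control Fzd2 rose 2.89-fold (limma adjusted p = 0.0487, log2 difference 1.53 with an SE of 0.27, 2 arrays a group). Its distance of 1.21 from labelled Ovol1 KO (SE 0.27, limma adjusted p = 0.0805) did not pass, but did with only the groups compared (1.21). Leaving out either control array gave the same fit. The call against control lay at the threshold. It was lost when control replicate 2 (1.18), DKO replicate 1 (1.66), DKO replicate 2 (1.40) or either labelled Ovol1 KO array (1.53 each) was left out, and held without control replicate 1 (1.88). It also ended with offsets of 1 (1.57) or 64 (1.42), with quantile normalization and with all probe sets tested (1.53 each). Using only the groups compared is the same fit as leaving out a labelled Ovol1 KO array.

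Fzd6, a receptor known for orienting hairs in mouse skin, read 10.18 and 10.02 in control, 9.80 and 9.86 in labelled Ovol1 KO, and 10.77 and 11.13 in DKO. Over labelled Ovol1 KO it rose 2.17-fold in DKO (limma adjusted p = 0.0447, log2 difference 1.12 with an SE of 0.21). The difference of 0.85 from control (SE 0.21, limma adjusted p = 0.141) did not pass. Again the DKO arrays stood above the other 4, and the arrays within each group differed by at most 0.35. The call was lost when any 1 array was left out, with differences from 0.94 without DKO replicate 2 to 1.29 without DKO replicate 1, and 1.12 without control replicate 1 or control replicate 2, 1.09 without labelled Ovol1 KO replicate 1 and 1.15 without its replicate 2. It also ended with offsets of 1 (1.13) and 64 (1.08), with quantile normalization (1.05) and without both arrays that lack Xist signal (1.09). Using only the groups compared is the same fit as leaving out a control array.

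Of the other 8 receptors none passed in any comparison. Fzd4, which also serves as the receptor of the eye growth factor Norrin, read 6.65 and 6.26 in control, 6.86 and 6.12 in labelled Ovol1 KO and 7.50 and 7.33 in DKO, 0.96 above control (SE 0.30) and 0.92 above labelled Ovol1 KO (SE 0.30). Fzd1 read 8.71 and 8.27 in control, 9.05 and 8.80 in labelled Ovol1 KO, and 9.08 and 9.62 in DKO, 0.86 above control (SE 0.27). The labelled Ovol1 KO arrays of Fzd1 thus lay between the other groups. Fzd10 read 8.30 and 7.57 in control, 8.43 and 7.01 in labelled Ovol1 KO, and 9.0 and 8.90 in DKO, 1.02 above control (SE 0.47) and 1.23 above labelled Ovol1 KO (SE 0.47). Its spread within the first 2 groups was 0.73 and 1.41, close to or above the differences themselves. Fzd10os, a transcript named for lying on the strand opposite Fzd10, did not follow it: it read 6.80 and 7.21, 7.53 and 7.01, and 6.78 and 6.95 in the same order of groups.

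Fzd7 read 9.22 and 8.26 in control, 8.70 and 8.69 in labelled Ovol1 KO, and 9.22 and 9.45 in DKO, 0.60 above control (SE 0.33). Fzd8 read 8.66 and 7.94, 8.4 and 8.20, and 8.82 and 9.03, with 0.62 (SE 0.28). In both genes control replicate 1 read well above control replicate 2 and reached or neared the lower DKO array. Fzd5 was the only receptor with a difference below 0 in both comparisons: it read 8.45 and 8.75 in control, 8.22 and 9.0 in labelled Ovol1 KO, and 7.89 and 7.93 in DKO, at -0.69 against control (SE 0.29) and -0.70 against labelled Ovol1 KO (SE 0.29). Fzd3 and Fzd9 differed from control by 0.11 (SE 0.39) and 0.15 (SE 0.19). In all, 9 of the 10 receptors had a difference above 0 against control, beside 55.6% of all genes, and their median was 0.74 beside 0.03. Both DKO arrays were above both control arrays for 8 of them (80.0%, against 21.1% of all genes). Leaving out control replicate 2 or DKO replicate 1 gave 8 above 0 and 2 below.

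**Figure D2:**
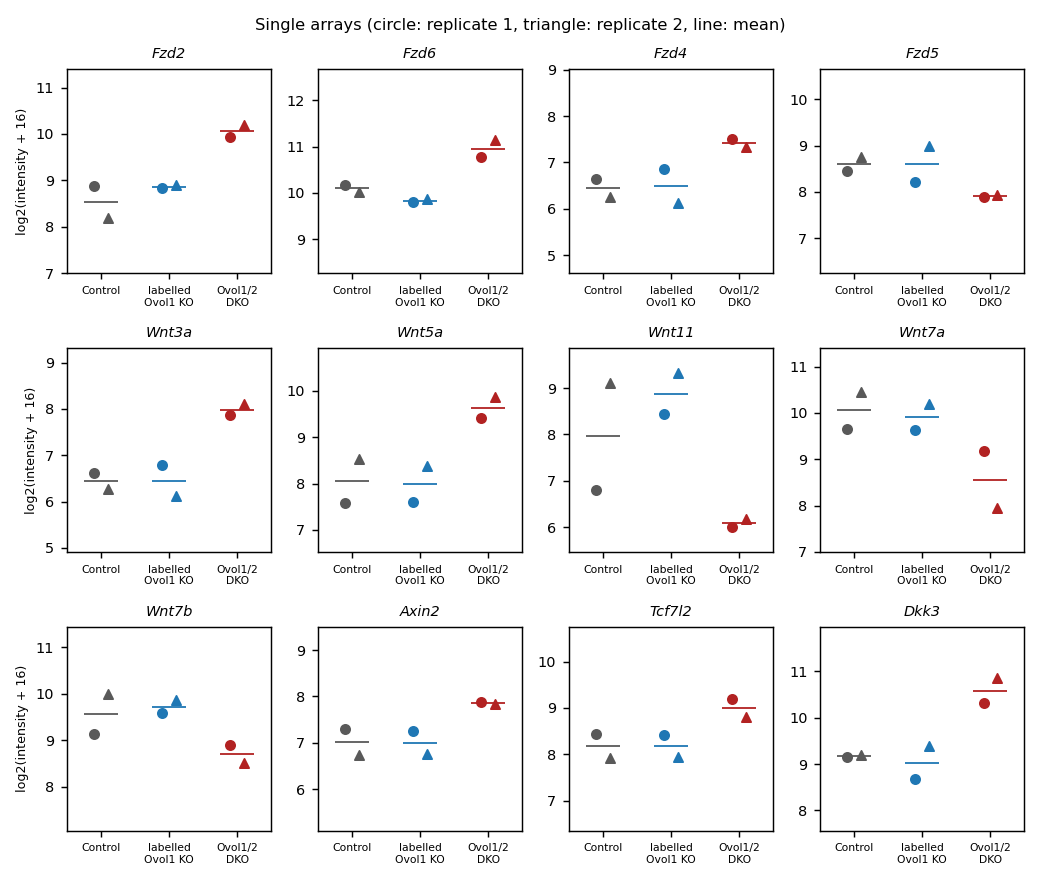
Level of 12 genes in each array on the log2(intensity + 16) scale, with control in grey, labelled Ovol1 KO in blue and Ovol1/2 DKO in red; circles are replicate 1, triangles replicate 2, lines group means, and every panel spans an equal length of the scale. Both DKO arrays lie above the other 4 for Fzd2, Fzd6, Fzd4, Wnt3a, Wnt5a, Axin2, Tcf7l2 and Dkk3, and below them for Fzd5, Wnt11, Wnt7a and Wnt7b.

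Among the ligands, Wnt3a gave the smallest p in both comparisons. Wnt3a, a classic activator of the beta-catenin branch, read 6.62 and 6.28 in control, 6.78 and 6.12 in labelled Ovol1 KO, and 7.86 and 8.11 in DKO. Both DKO arrays were above the other 4, whose levels lay close to background. Wnt3a rose 2.89-fold over labelled Ovol1 KO (limma adjusted p = 0.0409, log2 difference 1.53 with an SE of 0.28). Against control the difference was 1.54 (SE 0.28) and just missed the threshold (limma adjusted p = 0.0534). The call against labelled Ovol1 KO was lost without labelled Ovol1 KO replicate 1 (1.86) or replicate 2 (1.20), without DKO replicate 1 (1.66) or replicate 2 (1.40), with quantile normalization (1.57) and with an offset of 64 (1.14). Against control Wnt3a did not pass without control replicate 1 (1.71) or control replicate 2 (1.37). It passed with only the groups compared (1.54), the same fit as leaving out either labelled Ovol1 KO array.

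Wnt11, a ligand of the polarity branch, lay the other way. It read 6.80 and 9.11 in control, 8.44 and 9.32 in labelled Ovol1 KO, and 6.01 and 6.18 in DKO, where its mean was near background. The DKO arrays were below all others, but control replicate 1 lay closer to them than to control replicate 2. The differences were -1.86 against control (SE 0.70, limma adjusted p = 0.393) and -2.79 against labelled Ovol1 KO (SE 0.70, limma adjusted p = 0.110), and neither passed. Without control replicate 1 the difference from control was -3.01 and passed (limma adjusted p = 0.0195), and without control replicate 2 it was -0.71 (limma adjusted p = 1). With only the groups compared, the difference from labelled Ovol1 KO stayed at -2.79 and passed (limma adjusted p = 0.00827). Leaving out either control array gave the same fit.

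To show the sequence next to these genes, the 250 bases before the start site are printed for Wnt3a and Wnt11, the ligands with the smallest p on the higher and the lower side against labelled Ovol1 KO, from the RefSeq promoter table (build GRCm38.p6). Sequences run 5′ to 3′ on the gene's strand. Capitals mark motif matches on either strand: the Zeb and Snail E-box CAGGTG, read on the opposite strand in Wnt3a, and the Tcf/Lef core CTTTGAT, read on the opposite strand in Wnt11. The second Wnt11 entry (chr7:98838595-98838844), not printed, held none of the motifs searched.
Wnt3a, minus strand, chr11:59290752-59291001: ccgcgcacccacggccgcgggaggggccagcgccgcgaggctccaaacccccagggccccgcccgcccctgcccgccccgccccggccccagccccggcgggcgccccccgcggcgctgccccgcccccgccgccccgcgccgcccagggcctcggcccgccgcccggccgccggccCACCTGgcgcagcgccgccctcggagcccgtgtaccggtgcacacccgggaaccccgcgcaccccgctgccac
Wnt11, first of its 2 entries, plus strand, chr7:98834862-98835111: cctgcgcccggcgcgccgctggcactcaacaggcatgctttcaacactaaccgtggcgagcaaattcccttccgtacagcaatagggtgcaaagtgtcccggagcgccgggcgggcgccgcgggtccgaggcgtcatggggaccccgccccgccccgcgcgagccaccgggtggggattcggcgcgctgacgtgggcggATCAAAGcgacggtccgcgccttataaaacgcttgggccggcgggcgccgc

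The promoter table held 31 of the 42 genes, in 38 windows. The E-box letters CAGGTG were in 9 of these windows, belonging to 8 genes (Fzd5, Nkd1, Wnt10b, Wnt2b, Wnt3a, Wnt4, Wnt5b and Wnt9b), and in 17.2% of all 32851 windows of that length. CTTTGAT was in windows of Sp5, Wnt11 and Wnt5b (3.21% of all windows), and CTTTGTT in windows of Dkk1, Fzd7, Sp5 and Tcf7l2 (5.03%). The Ovol1 core CCGTTA was in none of the 38 windows, against 2.18% of all windows. No motif searched lies within another, and a match only describes the sequence. Zeb1, whose protein binds the E-box, read 6.06 and 6.13 in control, 5.88 and 6.29 in labelled Ovol1 KO, and 11.06 and 11.03 in DKO.

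Wnt5a read 7.59 and 8.54 in control, 7.60 and 8.38 in labelled Ovol1 KO, and 9.42 and 9.86 in DKO. The DKO arrays were above all others, and replicate 2 was the higher array in every group. The difference was 1.57 against control (SE 0.40, limma adjusted p = 0.152) and 1.65 against labelled Ovol1 KO (SE 0.40, limma adjusted p = 0.100), and neither passed. With only the groups compared the latter stayed at 1.65 and passed (limma adjusted p = 0.0455). Leaving out either control array gave the same fit. The fibroblast marker list also stood higher in replicate 2 of every group. Its 12 genes summed to an intensity of 1147 to 2178 in control, 1225 to 2135 in labelled Ovol1 KO and 2049 to 2897 in DKO, with the defining markers Col1a1 at 7.48 to 8.50 and Dcn at 7.25 to 8.40 over the 6 arrays. Of the 12, Thy1 alone passed in these comparisons: it rose by 1.67 in DKO over control (limma adjusted p = 0.0187) and by 1.90 over labelled Ovol1 KO (limma adjusted p = 0.0106). Postn was 2.22 and 2.04 higher in DKO and Pdgfra differed by -0.66 and -0.79, without passing. The part of these cells in the Wnt5a signal was not tested. In cultures profiled in bulk, fewer cells of a type and less RNA per cell cannot be told apart.

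Wnt7a and Wnt7b, close relatives expressed in epithelia, both lay lower in DKO. Wnt7a read 9.66 and 10.46 in control, 9.63 and 10.20 in labelled Ovol1 KO, and 9.18 and 7.94 in DKO, at -1.50 against control (SE 0.47, limma adjusted p = 0.257). The DKO arrays were 1.25 apart, so the size rested on which of them was read: -0.88 without DKO replicate 2 and -2.13 without DKO replicate 1. Wnt7b read 9.13 and 10.00 in control, 9.58 and 9.86 in labelled Ovol1 KO, and 8.89 and 8.50 in DKO, at -0.87 against control (SE 0.33, limma adjusted p = 0.392). Against labelled Ovol1 KO they stood at -1.35 (SE 0.47) and -1.02 (SE 0.33). Neither passed in either comparison, though no array of DKO overlapped those of the other groups.

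Wnt6 and Wnt10b, ligands made by embryonic surface epithelia, also had unadjusted p values under 0.05 against control without passing. Wnt6 read 7.54 and 6.76 in control, 7.55 and 8.45 in labelled Ovol1 KO, and 8.14 and 8.13 in DKO, 0.98 above control (SE 0.37) but 0.13 above labelled Ovol1 KO (SE 0.37). Wnt10b read 7.62 and 7.34, 7.52 and 7.91, and 7.84 and 8.53 in the same order, 0.70 above control (SE 0.29). Wnt3 varied most: it read 8.70 and 7.41 in control, 8.82 and 5.79 in labelled Ovol1 KO, and 8.99 and 9.52 in DKO. The 2 arrays labelled Ovol1 KO were 3.03 apart, the widest gap within a group of any of the 42 genes. Both DKO arrays of Wnt3 were above the others, but the difference of 1.20 from control had an SE of 0.93.

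Wnt10a, Wnt4, Wnt9a and Wnt9b had no difference that passed. Wnt10a, known for hair, tooth and skin appendage formation, read 10.84 and 10.42 in control, 10.38 and 10.60 in labelled Ovol1 KO and 10.73 and 10.91 in DKO, 0.19 above control (SE 0.23). Wnt4 read 10.07 and 10.52, 11.13 and 9.74, and 9.98 and 9.99, at -0.31 (SE 0.44), and its other probe set gave -0.50 (SE 0.51). Wnt9a read 7.83 and 9.08, 7.84 and 8.99, and 8.44 and 8.87, at 0.20 (SE 0.51), with replicate 2 higher in each group. Wnt9b read 9.05 and 9.28, 9.09 and 9.40, and 9.03 and 9.16, at -0.08 (SE 0.21). The 7 other ligands not yet named with a difference (Wnt1, Wnt2, Wnt2b, Wnt5b, Wnt8a, Wnt8b and Wnt16) had group means from 5.36 to 7.42 and differed from control by -0.33 to 0.27. In sum, 12 of the 19 ligands were above and 7 below control, with a median of 0.19. Against labelled Ovol1 KO 9 were above and 10 below, with a median of -0.03.

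**Figure D3:**
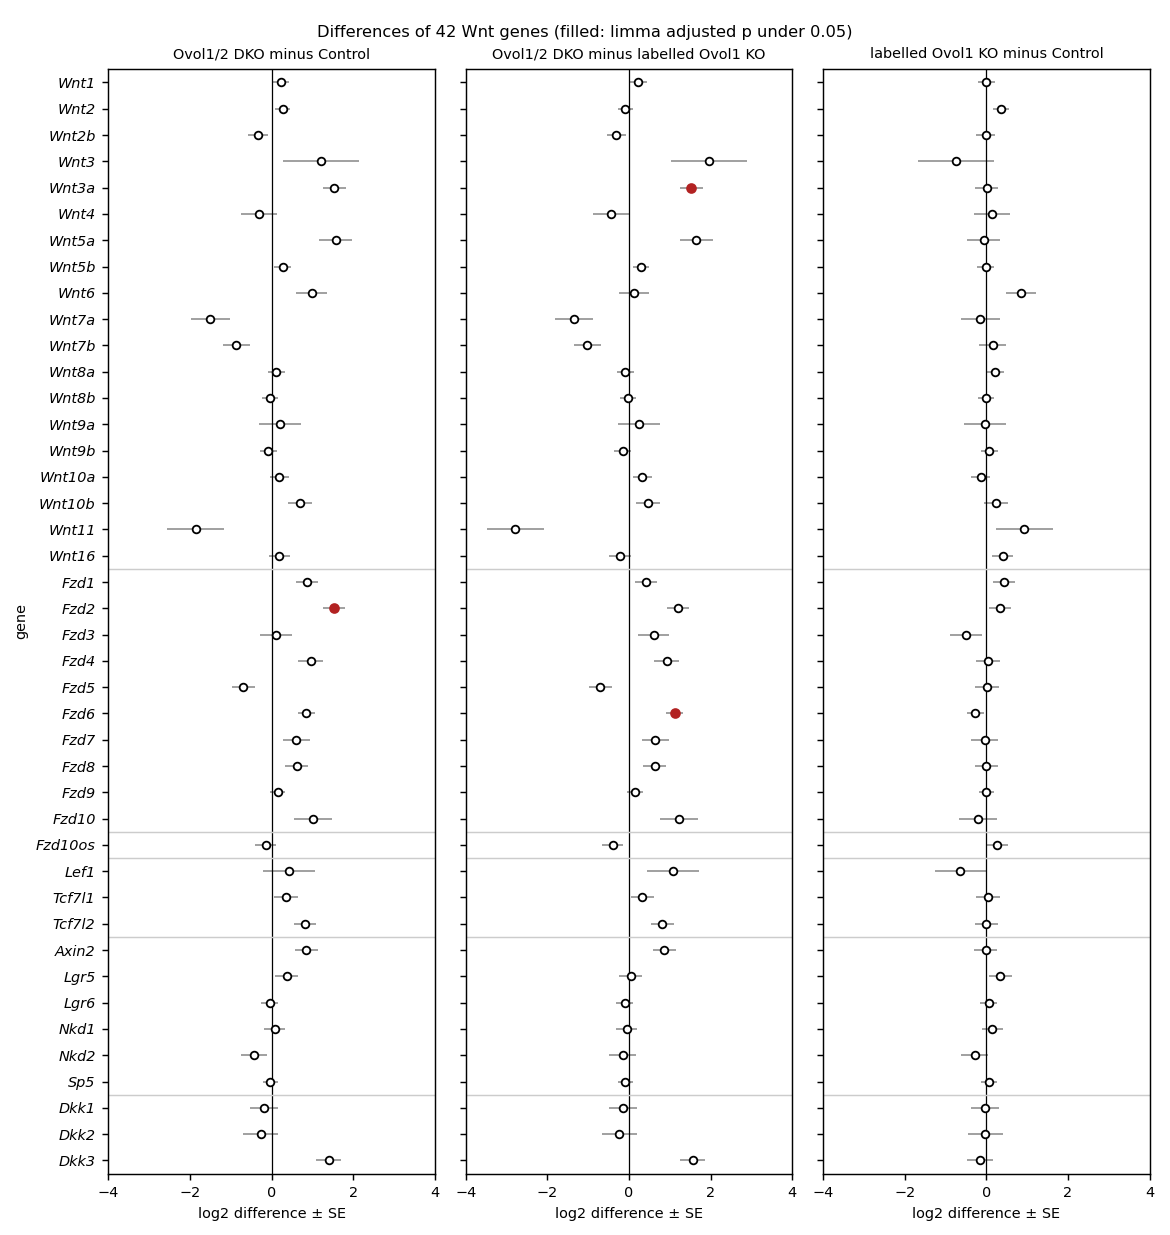
Log2 difference of each of the 42 genes in the 3 comparisons, with bars of 1 standard error from the limma fit. Filled points passed at an adjusted p under 0.05: Fzd2 against control, and Fzd6 and Wnt3a against labelled Ovol1 KO. The right panel, labelled Ovol1 KO minus control, has no filled point.

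The Tcf/Lef factors are the DNA-binding partners of beta-catenin, and none of the 3 passed. Tcf7l2 read 8.44 and 7.92 in control, 8.42 and 7.95 in labelled Ovol1 KO, and 9.19 and 8.81 in DKO. In DKO it was 0.82 higher than control (SE 0.28, limma adjusted p = 0.323) and 0.82 higher than labelled Ovol1 KO (SE 0.28, limma adjusted p = 0.246), with both DKO arrays above the rest. Tcf7l1, mostly a repressor and known in skin from follicle stem cells, read 9.42 and 8.78, 9.39 and 8.88, and 9.55 and 9.37, at 0.36 from control (SE 0.29). Lef1, an activator that marks hair follicle precursors, read 8.79 and 7.19 in control, 7.04 and 7.65 in labelled Ovol1 KO, and 9.13 and 7.71 in DKO. Its arrays were 1.59 apart in control and 1.42 in DKO, replicate 1 the higher in both, so the difference of 0.43 (SE 0.63) was smaller than the spread within either group, and it ran from -0.36 to 1.23 over the settings tried.

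None of the 6 targets and feedback regulators passed. Among further targets read outside this set and given below, Ccn4 passed in DKO against both groups, and Vcan against labelled Ovol1 KO. Axin2, the target most often used as a readout of the beta-catenin branch, read 7.30 and 6.73 in control, 7.25 and 6.75 in labelled Ovol1 KO, and 7.88 and 7.84 in DKO. All DKO values were above all others. The difference of Axin2 was 0.85 from control (SE 0.28, unadjusted p = 0.0195, limma adjusted p = 0.287) and 0.86 from labelled Ovol1 KO (SE 0.28, limma adjusted p = 0.207), and did not pass. The other 5 targets and feedback regulators did not separate in this way. Nkd1 and Nkd2, inhibitors that bind Dishevelled, differed from control by 0.08 (SE 0.26) and -0.43 (SE 0.33). The transcription factor Sp5 stayed between 6.00 and 6.19 over the 6 arrays. Lgr5 and Lgr6, receptors for R-spondins and markers of follicle stem cells, ran from 5.52 to 6.33 and from 6.31 to 6.61, and differed from control by 0.37 (SE 0.29) and -0.05 (SE 0.21).

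The Dkk proteins are secreted, and Dkk1 and Dkk2 act on the Lrp co-receptors. Dkk3, the divergent member of the family, read 9.16 and 9.20 in control, 8.67 and 9.38 in labelled Ovol1 KO, and 10.31 and 10.86 in DKO. Both DKO arrays were well above the rest. Dkk3 was 1.40 higher than control (SE 0.31, limma adjusted p = 0.0943) and 1.56 higher than labelled Ovol1 KO (SE 0.31, limma adjusted p = 0.0517), and did not pass in either comparison. Leaving out labelled Ovol1 KO replicate 2 gave 1.91 against that group, which passed (limma adjusted p = 0.0390), and leaving out its replicate 1 gave 1.20, which did not. Dkk1 read 8.25 and 8.85, 8.14 and 8.88, and 8.16 and 8.55, at -0.19 from control (SE 0.34), and Dkk2 ran from 5.84 to 7.07, at -0.27 (SE 0.43). Both overlapped across all 3 groups.

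The third comparison set the arrays labelled Ovol1 KO against control. No gene of the 42 passed limma, as was true of all 19938 genes (0%), and none had an unadjusted p under 0.05, against 0.767% of all genes. Their differences ran from -0.75 for Wnt3 to 0.93 for Wnt11, with 21 above and 21 below 0 and a median of 0.00. The arrays did not overlap for 5 genes (11.9%, against 19.1% of all genes). Fzd1, Wnt2, Wnt6 and Wnt16 were higher in labelled Ovol1 KO (9.52%, against 8.82%) and Fzd6 was lower (2.38%, against 10.3%). Wnt6 had the smallest p, with 0.85 (SE 0.37, unadjusted p = 0.0586, limma adjusted p = 0.999). A count of 0 here does not show that the groups are alike: for Wnt3a the difference was 0.01 with an SE of 0.28, and for Wnt3 the SE was 0.93.

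Other genes of the pathway were read from a list of 77 measured genes, from co-receptors to nuclear factors. Against control 2 of them passed (2.60%, against 2.02% of all genes), both higher in DKO. Ccn4, a secreted matricellular protein induced by Wnt1 signals, read 7.08 and 7.26 in control, 7.20 and 7.52 in labelled Ovol1 KO, and 11.12 and 11.59 in DKO, a rise of 4.18 over control (SE 0.24, limma adjusted p = 0.00263) that passed in 16 of 16 alternative settings. Sostdc1, a secreted inhibitor of Wnt and BMP signals in skin appendages, read 7.18 and 6.87, 7.35 and 6.49, and 9.16 and 10.58. It rose by 2.84 over control (SE 0.50, limma adjusted p = 0.0459), a call lost when control replicate 1 (3.0), control replicate 2 (2.69), DKO replicate 2 (2.13) or either labelled Ovol1 KO array (2.84 each) was left out, and held without DKO replicate 1 (3.56). In all it passed in 6 of 16 settings.

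Against labelled Ovol1 KO 5 of the 77 passed (6.49%, against 3.15%), all higher in DKO: Ccn4 (4.0, SE 0.24, limma adjusted p = 0.00274), Sostdc1 (2.95, SE 0.50), Vcan, Celsr1 and Prickle2. The matrix proteoglycan Vcan read 10.07 and 9.20 in control, 8.37 and 8.81 in labelled Ovol1 KO, and 10.92 and 11.27 in DKO, 2.51 above labelled Ovol1 KO (SE 0.34, limma adjusted p = 0.0156) and 1.46 above control (SE 0.34), which did not pass. Celsr1, the cadherin of the epidermal polarity system, read 9.68 and 8.89, 8.89 and 8.74, and 10.64 and 10.53, 1.77 above labelled Ovol1 KO (SE 0.29, limma adjusted p = 0.0276) and 1.30 above control (SE 0.29, limma adjusted p = 0.100). Prickle2, also of that system, read 5.63 and 5.60, 5.38 and 5.36, and 6.40 and 6.73, 1.19 above labelled Ovol1 KO (SE 0.20, limma adjusted p = 0.0324), with group means near background outside DKO. Without control replicate 1, Vcan (1.90) and Celsr1 (1.69) passed against control too. Calls of Celsr1 and Prickle2 were lost without either array of labelled Ovol1 KO or of DKO (Celsr1 1.84 and 1.69 without labelled Ovol1 KO replicates 1 and 2, and 1.71 and 1.82 without DKO replicates 1 and 2; Prickle2 1.20, 1.18, 1.35 and 1.03 in that order). Vcan lost its call without labelled Ovol1 KO replicate 1 (2.28), DKO replicate 1 (2.68) or DKO replicate 2 (2.33), and Sostdc1 without labelled Ovol1 KO replicate 1 (3.38), its replicate 2 (2.52) or DKO replicate 2 (2.24).

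By role, none of the 8 co-receptors, 2 secretion factors, 4 R-spondins, 3 genes of receptor turnover, 16 cytoplasmic or 9 nuclear genes passed in the 3 comparisons. The cytoplasmic genes, which include beta-catenin, the Dishevelled proteins and the kinases that mark beta-catenin for destruction, had differences from control between -0.19 and 0.55 and a median of -0.01. The co-receptors ran from -0.34 to 0.92, the extracellular inhibitors from -0.49 to 2.84, and the further targets from -0.61 to 4.18. Over the 77 genes the median was 0.10, beside 0.22 for the 42 genes and 0.03 for all. The 7 planar polarity genes did not move as a set. Against control they ran from -0.48 to 1.3, with 4 above and 3 below 0. Against labelled Ovol1 KO they ran from -0.65 to 1.77, with a median of -0.01. There Celsr1 and Prickle2 were the 2 above 0, and 5 were below.

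**Figure D4:**
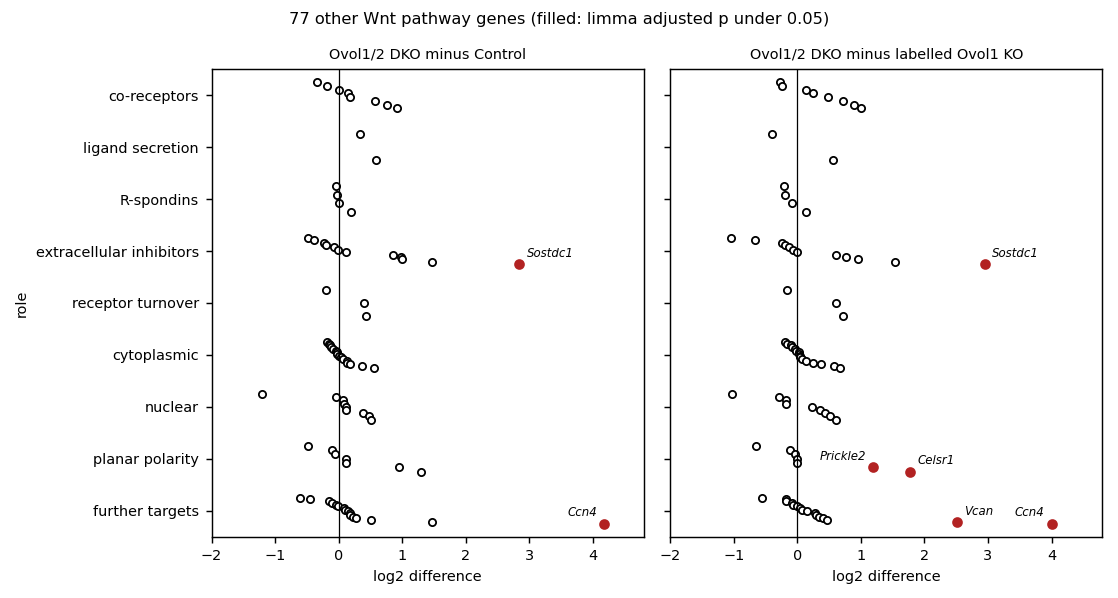
Log2 difference of the 77 other pathway genes, 1 point a gene, by role, for Ovol1/2 DKO minus control (left) and minus labelled Ovol1 KO (right). Filled, named points passed limma at an adjusted p under 0.05. The cytoplasmic genes run from -0.19 to 0.55 on the left and from -0.19 to 0.68 on the right.

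Spread within groups set much of what could be called. The median gap between the 2 arrays of a group was 0.46 in control, 0.48 in labelled Ovol1 KO and 0.19 in DKO for the 42 genes, beside 0.28, 0.33 and 0.22 for all genes. Replicate 2 was above replicate 1 in every group for 13 of the 42 genes (31.0%, against 19.9% of all genes), and below in every group for 7 (16.7%, against 28.1%). The 13 were Fzd5, Wnt1, Wnt5a, Wnt5b, Wnt9a, Wnt9b, Wnt11, Nkd1, Sp5, Lgr6, Dkk1, Dkk2 and Dkk3, which include genes lower and higher in DKO. Among fibroblast markers, 8 of 12 were higher in every replicate 2. The part of these cells in those signals was not tested.

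Markers of other cell types were read over the same arrays. Summed over 8 dermal papilla markers, intensity was 2035 to 4356 in control, 2529 to 4325 in labelled Ovol1 KO and 2870 to 3618 in DKO, with the defining marker Corin at 6.01 to 6.60. Most of that sum was Crabp1, at 10.45 to 11.83, and none of the 8 passed. Prom1 differed by 0.56 and 0.80 in DKO from control and labelled Ovol1 KO. Corin went the other way, by -0.32 and -0.38, with both DKO arrays below the others. The median differences of the 8 were 0.03 and -0.2. The 8 melanocyte markers summed to 1210 to 1362, 865 to 1130 and 662 to 804 in that order, lowest in DKO, with Dct at 5.39 to 8.01 and Tyrp1 at 5.99 to 8.28. Their median differences in DKO were -0.66 from control and -0.24 from labelled Ovol1 KO, and none passed. Not all followed the sum: Sox10, Kit and Mlana differed from control by -0.01, 0.01 and -0.11, and Dct from labelled Ovol1 KO by 0.05. The 6 endothelial markers summed to 736 to 862, 492 to 563 and 617 to 635, with the defining marker Cdh5 at 5.76 to 6.16, near background. Pecam1, also defining, was at 7.52 and 7.39 in DKO and at most 6.65 elsewhere, and rose over labelled Ovol1 KO (1.28, limma adjusted p = 0.0204). Kdr lay the other way, at 9.19 and 8.77 in control, 7.96 and 7.84 in labelled Ovol1 KO and 7.82 and 7.83 in DKO (-1.15 from control, limma adjusted p = 0.0598). Ptprc, which defines leukocytes, ran from 5.84 to 6.29, and the 6 leukocyte markers summed to 325 to 726, 324 to 553 and 345 to 398. The part of any of these cell types in the Wnt signals was not tested.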

How the data were processed

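Each of the 6 arrays gave 1 column of 35556 probe set intensity values on a linear scale, as the authors deposited them. The submitters' processing notes name Affymetrix Expression Console 1.1.1 and PLIER 2.0. How background was corrected and arrays were normalized is not given in the sources used. Array medians ran from 103.3 to 109.8. Probe sets with 1 gene symbol (21789) were kept, symbols were updated by Entrez identifier, and each gene took its probe set of highest mean. The log2(intensity + 16) scale, computed here from the deposited values, understates differences of dim genes. All 3 comparisons came from a single limma 3.58.1 fit (R 4.3.3, with empirical Bayes), adjusted by Benjamini-Hochberg over 19938 genes. Its p-values lean on spread pooled over genes, since 2 arrays against 2 allow no small exact p. The fit was tested on simulated data. The 42 genes, the pathway and marker lists, the naming rule and the alternatives were chosen with earlier results of these data known. Single arrays were given for genes with an unadjusted p under 0.05 in any comparison or a mean at or above that of the median gene. Other pathway genes were named where they passed. Promoter windows leave out bases after the start site. One of the marker lists is not reported here.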

Additional observations from a re-analysis of the deposited data

How the results depend on the processing

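Over 600 values under 16 settings, 499 kept their side of the threshold, 55 lost a call and 46 gained one, and 0 changed sign. Members and named pathway genes were counted only where the main fit gave an unadjusted p under 0.05. That choice favours genes whose sign holds, so the 0 does not show firmness. For each comparison some of the 16 settings are the same fit, as said above. Of the 42 genes, 31 never passed against control and 29 never passed against labelled Ovol1 KO, and none passed between labelled Ovol1 KO and control in any setting. Of the genes of the 42 without an unadjusted p under 0.05, 14 of 28 changed sign in some setting against control and 12 of 29 against labelled Ovol1 KO. The cause of the changes below was not tested.

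For Ovol1/2 DKO minus control, where 1 of the 42 passed, 2 passed with median centring or an intensity trend, 0 with quantile normalization, offset 1, offset 64 or all probe sets, 10 without both arrays that lack Xist signal, and 0 to 2 with 1 array left out. Over all genes 403 became 155 with offset 64, 1395 without the Xist-lacking arrays, and 99 to 455 with 1 array left out (152 without control replicate 2, 109 without DKO replicate 1, 99 without DKO replicate 2). The median difference of the 42 became 0.60 without dim genes, 0.37 without the Xist-lacking arrays and 0.16 to 0.37 with 1 array left out.

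For Ovol1/2 DKO minus labelled Ovol1 KO, where 2 passed, 4 passed with only the groups compared, 1 with offset 1, 0 with offset 64 or quantile normalization, 10 without the Xist-lacking arrays and 0 to 4 with 1 array left out. Over all genes 628 became 311 with offset 64, 1508 without the Xist-lacking arrays and 135 to 831 with 1 array left out (135 without labelled Ovol1 KO replicate 1, 182 without DKO replicate 1, 154 without DKO replicate 2). The median became 0.42 without dim genes, 0.09 without the Xist-lacking arrays and 0.09 to 0.33 with 1 array left out. For labelled Ovol1 KO minus control, 0 to 3 of all genes passed with 1 array left out (3 without labelled Ovol1 KO replicate 2) and 20 without the Xist-lacking arrays, and the median ran from -0.02 to 0.13.

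Groups share replicate numbers, which the labels do not tie to a litter or day. With 2 numbers they were not taken as pairs, although the deviations of same-numbered arrays correlated at 0.261, 0.490 and 0.194 over genes. A replicate block gave 4 of the 42 against control (Fzd2, Wnt3a, Wnt5a and Dkk3; 597 of all genes) and 6 against labelled Ovol1 KO (Fzd6, Wnt3a, Wnt5a, Wnt11, Tcf7l2 and Dkk3; 1022 of all genes). Among the other pathway genes the block ended the call of Sostdc1 against control (limma adjusted p = 0.0606). It added calls of Celsr1 and the nuclear co-repressor Tle4 against control, and of Tle4 and the co-receptor Ptk7 against labelled Ovol1 KO. Tle4 (lower in DKO) and Ptk7 (higher) were named after their values were seen.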
